A study of Homo sapiens with 6 samples.

Results

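The genes IGF2BP1, IGF2BP2, IGF2BP3, LIN28A, LIN28B and HMGA2 were followed in A673, a human cell line grown from a Ewing sarcoma, with and without the fusion oncoprotein EWS-FLI1. They were taken by symbol, and all 6 were found among the 62700 rows of the deposited gene table and were among the 28485 genes with enough counts to be tested. The table holds 3 libraries of A673 cells labelled EWS-FLI1 knockout (below, knockout) and 3 libraries of A673 cells labelled EWS-FLI1 parental control (below, parental), grown in the same serum-supplemented medium with no other treatment or allele stated. The labels do not say how the knockout was made, nor whether it is 1 clone or a pool, so a difference between clones and the loss of the fusion cannot be told apart. Whether replicates came from separate cultures is not stated, so a p-value here speaks only of the spread among the sequenced libraries, and that spread may be technical.

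The 6 genes are known as oncofetal: they are active in the embryo and often active again in tumours, and most of them are silent in most adult tissues. IGF2BP1, IGF2BP2 and IGF2BP3 are paralogs that bind messenger RNAs, IGF2 and MYC among them, and protect or localise them. LIN28A and LIN28B bind the precursors of let-7 microRNAs and block their maturation. Mature let-7 in turn binds the 3′ UTRs of HMGA2, of the IGF2BP genes and of LIN28 itself, and lowers their messages. HMGA2 is an architectural chromatin protein that binds AT-rich DNA, so it belongs to this circuit as a let-7 target rather than as an RNA binder. In Ewing sarcoma cells, EWS-FLI1 has been reported to repress let-7a, with HMGA2 as a gene downstream.

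The let-7 sequences are shown because all 6 genes hold matches to them. The family had 9 mature names from 12 loci with 1 shared seed, bases 2 to 8, GAGGUAG, in capitals below (RefSeq, GRCh38.p14). The lines give let-7a, let-7b, let-7c and let-7i, whose host genes are given further on with their values in each genotype.
let-7a-5p: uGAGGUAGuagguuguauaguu
let-7b-5p: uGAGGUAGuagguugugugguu
let-7c-5p: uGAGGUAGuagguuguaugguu
let-7i-5p: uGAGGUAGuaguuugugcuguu

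The principal GENCODE 29 transcript of each gene was searched, on its own strand, for the 7 bases CTACCTC that pair with this seed. Each of the 6 3′ UTRs held at least 1 match, against 8.9% of 18712 protein-coding genes and 18.2% of the 6676 genes with a 3′ UTR of at least 1500 bases. IGF2BP1 held 4 matches in 6206 bases, LIN28B 4 in 4549 and HMGA2 4 in 3003, and only 12 of the 18712 genes held as many. IGF2BP2, IGF2BP3 and LIN28A held 1 match each, in 1792, 2153 and 3264 bases. A match is a run of letters, not a measured binding site, and the genes are known let-7 targets, so the share is a description.
The lines give 1 match of 8 bases (CTACCTC followed by A) for each gene, with the 7 bases in capitals.
IGF2BP1, chr17:49054352-49054375, plus strand: gtataaatggattaaCTACCTCaa
IGF2BP2, chr3:185644219-185644242, minus strand: aacacacagaagaagCTACCTCag
IGF2BP3, chr7:23311794-23311817, minus strand: tgcatttttactcaaCTACCTCag
LIN28A, chr1:26427348-26427371, plus strand: gcacagcctattgaaCTACCTCat
LIN28B, chr6:105078812-105078835, plus strand: acccggttgcaaagtCTACCTCat
HMGA2, chr12:65963298-65963321, plus strand: gccaacgttcgatttCTACCTCag

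**Figure D1:**
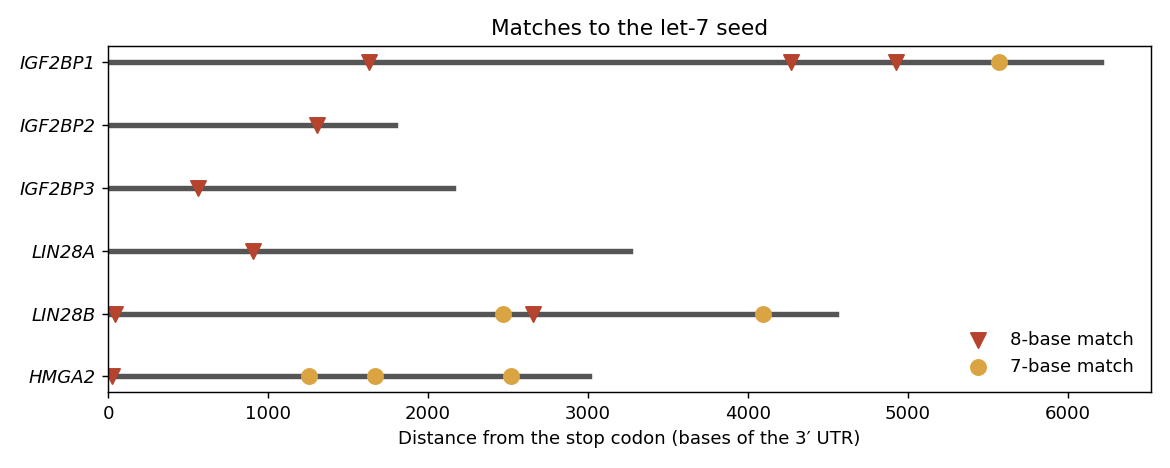
Matches to the let-7 seed along the 3′ UTR of each gene, in bases from the stop codon. Triangles mark matches of 8 bases and circles matches of 7 bases. IGF2BP1, LIN28B and HMGA2 hold 4 matches each, and the first match of HMGA2 and of LIN28B lies within 50 bases of the stop codon.

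Libraries held between 301605666 and 342624492 estimated counts. The genes that make up the fusion were EWSR1, with 240.6, 252 and 242 CPM in knockout libraries against 300, 288.2 and 290.7 CPM in parental libraries, and FLI1, with 53.7, 54.8 and 50.8 CPM in knockout libraries against 39.6, 41.9 and 40.6 CPM in parental libraries. Counts per gene do not separate the fusion from the normal genes, so they do not check the label. The 8 Ewing sarcoma markers examined, CD99 and NKX2-2 among them, all fell in knockout libraries, with a summed level of 281 to 292 against 1692 to 1752 CPM (counts scaled to library size with TMM factors) in parental libraries. The 7 fibroblast markers all rose, with sums of 38858 to 39388 against 345 to 366 CPM, and no marker of either list was at 0. In both genotypes CD99 made up most of the Ewing sarcoma sums and COL1A1 most of the fibroblast sums. Sums were 0.755 to 1.07 against 4.37 to 4.81 CPM for 7 epithelial markers, 1.79 to 2.26 against 0.516 to 0.641 CPM for 7 blood cell markers and 34.2 to 37.6 against 42.6 to 47.6 CPM for 6 endothelial markers. EMCN, which made up most of the endothelial sums, fell, while 3 of the 6 endothelial markers rose, among them PECAM1 with 8.23 ± 0.432 CPM in knockout and 0.151 ± 0.0286 CPM in parental libraries (SD, n = 3 each). Of the 28485 tested genes 73.8% passed at an adjusted p under 0.05, 36.3% higher and 37.5% lower in knockout libraries, and the groups did not overlap in 76.7%. The part that this broad change has in the results below was not tested. In both genotypes replicate 1 stood apart. Its chi-square per degree of freedom was 63.1 and 78.1 against knockout replicates 2 and 3, with 18.2 between those, and 47.8 and 31.4 against parental replicates 2 and 3, with 11.1 between those.

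Of the 6 genes, 5 fell and IGF2BP2 rose, and in none did the groups overlap, which by itself was the case for 76.7% of the tested genes. That all 6 passed is to be read against 73.8% over all genes. IGF2BP1 fell the furthest in this fit, to 20.8% of its parental level. IGF2BP3 fell to 76.0% of its parental level. Values are TMM-scaled CPM, which measure a gene against the total count of tested genes in its library, multiplied by a TMM factor. These factors were 0.8477 to 0.8879 in knockout and 1.144 to 1.166 in parental libraries. In such bulk values, fewer cells that express a gene and less RNA per cell cannot be told apart.

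IGF2BP1 (ENSG00000159217.10) lies on chromosome 17 from 48997412 to 49055650 on the plus strand (GRCh38). It held 107.5, 98.8 and 97.4 CPM in knockout libraries, against 476, 486.5 and 496 CPM in parental libraries. The parental values thus lay more than 4 times above every knockout value. The log2 ratio (log2 fold change, knockout over parental) was -2.26 (SE 0.052, edgeR adjusted p = 2.62e-20), and 9.14% of tested genes had a lower one. In rank by CPM, IGF2BP1 stood above 91.7% of tested genes in knockout and above 99.3% in parental libraries. Among genes abundant in parental libraries some fell much further. Of the 3990 genes with at least 20000 counts on average there, the 20 most reduced kept a median of 0.617% of their unscaled parental count. In unscaled counts IGF2BP1 held on average 26634 in knockout and 187619 in parental libraries.

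IGF2BP2 (ENSG00000073792.16), the paralog that stays active in many adult tissues, lies on chromosome 3 from 185643739 to 185825056 on the minus strand. It held 119.6, 118.0 and 114.5 CPM in knockout libraries, against 70.9, 68.4 and 70.3 CPM in parental libraries. Every knockout library was higher, with a log2 ratio of 0.75 (SE 0.047, edgeR adjusted p = 2.69e-12). With total counts as the only scaling the rise was 0.32 (edgeR adjusted p = 1.87e-06). That scaling gave all genes a median of -0.48 on the log2 scale, in place of -0.06.

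IGF2BP3 (ENSG00000136231.14) lies on chromosome 7 from 23310209 to 23470467 on the minus strand. It held 87.0, 83.9 and 79.3 CPM in knockout libraries, against 104.2, 112.8 and 112.2 CPM in parental libraries. The highest knockout value lay below the lowest parental one, and the log2 ratio was -0.40 (SE 0.051, edgeR adjusted p = 4.40e-07). With total counts only it was -0.82. IGF2BP3 shares 17.9% of its annotated exonic bases with MALSU1, a gene on the other strand, so in libraries not stated to keep strand their reads may not be told apart there. MALSU1 held 19.7 ± 0.249 CPM in knockout and 24.3 ± 0.800 CPM in parental libraries (SD, n = 3 each). The part that divided reads have in the IGF2BP3 difference was not tested.

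LIN28B (ENSG00000187772.8) lies on chromosome 6 from 104936616 to 105083332 on the plus strand. It held 7.48, 7.39 and 6.88 CPM in knockout libraries, against 19.6, 21.3 and 21.6 CPM in parental libraries. All knockout values were well below all parental ones, and the log2 ratio was -1.52 (SE 0.061, edgeR adjusted p = 6.82e-16). LIN28A (ENSG00000131914.11), on chromosome 1 from 26410778 to 26429722, was close to the limit of what was counted. It held 0.125, 0.0733 and 0.171 CPM in knockout libraries, against 0.436, 0.476 and 0.489 CPM in parental libraries. These levels rest on 19.5 to 46.6 counts per knockout library and 166 to 195 per parental library, where 3 counts are 0.0075 to 0.0117 CPM. LIN28A fell with a log2 ratio of -1.92 (SE 0.24, edgeR adjusted p = 3.15e-07), the least precise of the 6.

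HMGA2 (ENSG00000149948.14) lies on chromosome 12 from 65824131 to 65966295 on the plus strand. It held 82.4, 82.9 and 78.8 CPM in knockout libraries, against 171.2, 170.4 and 173.9 CPM in parental libraries. Libraries of a genotype lay close together, and the log2 ratio was -1.08 (SE 0.047, edgeR adjusted p = 3.69e-15). HMGA1, its paralog and a chromatin protein of the same kind, moved the other way. It held 262.0, 263.4 and 255.1 CPM in knockout libraries, against 163.4, 147.0 and 153.4 CPM in parental libraries, with a log2 ratio of 0.75 (SE 0.050, edgeR adjusted p = 7.43e-12).

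**Figure D2:**
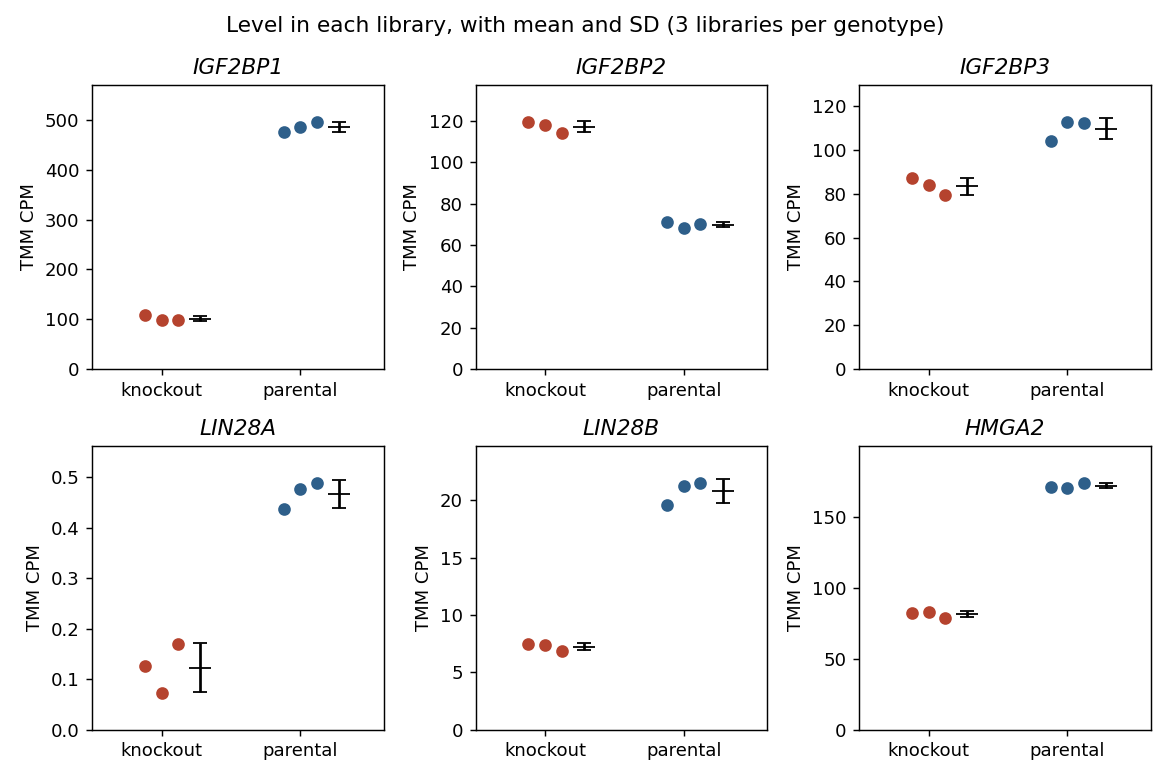
TMM-scaled CPM of the 6 genes in each library, knockout in red and parental in blue, with the mean and SD of the 3 libraries of a genotype beside the points. Each panel has its own linear axis from 0. IGF2BP2 is the gene whose knockout points lie above its parental points, and LIN28A stays under 0.5 CPM in all libraries.

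Levels were compared between genes per length, as CPM divided by the length in kilobases of the principal transcript. In knockout libraries the order was IGF2BP2 at 31.8 ± 0.715, IGF2BP3 at 19.6 ± 0.916, HMGA2 at 18.2 ± 0.502, IGF2BP1 at 12.2 ± 0.663, LIN28B at 1.32 ± 0.0586 and LIN28A at 0.0307 ± 0.0121 CPM per kb (SD, n = 3). In parental libraries it was IGF2BP1 at 58.8 ± 1.20, HMGA2 at 38.4 ± 0.417, IGF2BP3 at 25.8 ± 1.13, IGF2BP2 at 18.9 ± 0.353, LIN28B at 3.78 ± 0.189 and LIN28A at 0.117 ± 0.00690 CPM per kb (SD, n = 3). No neighbours in either order had overlapping libraries. The place of HMGA2 rests on its principal transcript of 4473 bases. With the longest annotated one, 8094 bases, it stood at 10.1 ± 0.277 CPM per kb in knockout libraries, below IGF2BP1, and at 21.2 ± 0.230 CPM per kb in parental libraries, below IGF2BP3, while the other 5 genes kept their levels. With either length the LIN28 genes were last in both genotypes, while the IGF2BP genes changed places.

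The make-up of the IGF2BP family differed between genotypes. Of the summed IGF2BP level per length, IGF2BP1 took 19.2% ± 0.486 in knockout and 56.8% ± 0.143 in parental libraries (SD, n = 3). IGF2BP2 took 49.2%, 50.2% and 50.5% in the knockout libraries and on average 18.3% ± 0.599 in parental libraries. IGF2BP3 took 30.8% ± 0.400 in knockout and 24.9% ± 0.679 in parental libraries, a difference of 5.87 percentage points that was 11.1 when lengths were not divided out. These shares do not depend on how libraries are scaled. For each of the 3 paralogs all knockout shares lay on one side of all parental shares, and the two-sided exact permutation test gave p = 0.1, the smallest that 3 against 3 libraries allow. The family sum was 63.7 ± 2.22 CPM per kb in knockout and 103.5 ± 2.09 CPM per kb in parental libraries, or 61.5% of the parental level (exact permutation p = 0.1). LIN28B took 97.7% ± 0.944 of the LIN28 sum in knockout and 97.0% ± 0.0294 in parental libraries, and these shares overlapped (exact permutation p = 0.4). HMGA2 took 13.1% ± 0.122 of the HMGA sum in knockout and 34.9% ± 1.21 in parental libraries (exact permutation p = 0.1). With the longest transcripts these HMGA2 shares were 7.7% ± 0.0759 in knockout and 22.9% ± 0.935 in parental libraries.

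**Figure D3:**
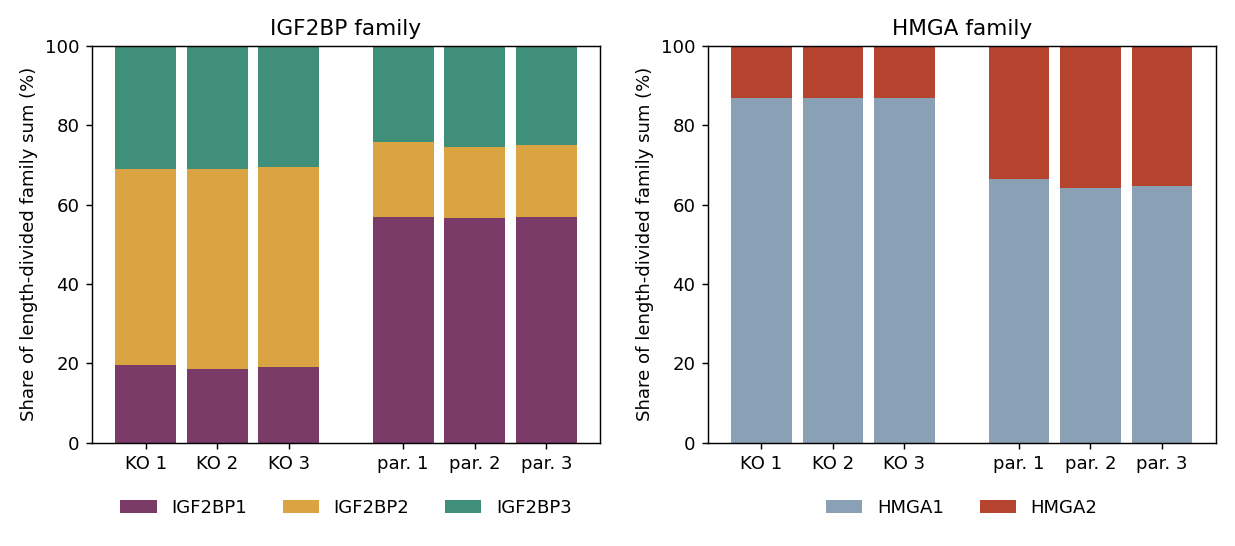
Share of each paralog in the length-divided sum of its family, in percent, for knockout (KO) and parental (par.) libraries. IGF2BP2 takes the largest share in the 3 knockout libraries and IGF2BP1 in the 3 parental libraries, and HMGA2 takes a smaller share of the HMGA sum in knockout libraries.

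Reads shared with other genes limit some of these values. Of the runs of 31 bases in the annotated transcripts of each gene, 1.8% of those of IGF2BP1, 1.89% of LIN28B and 4.19% of HMGA2 also occurred in another gene, and 9.22% of LIN28A, 16.5% of IGF2BP2 and 28.1% of IGF2BP3. For IGF2BP3 most of the shared runs were those of MALSU1, 1491 of 2437. No run was shared among IGF2BP1, IGF2BP2 and HMGA2 or between these and the other 3 genes, so the paralog shares do not rest on divided reads between IGF2BP1 and IGF2BP2.

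Of the 8 listed host genes of let-7, 5 rose, 1 fell and 2 missed the threshold, and with total counts only 4 rose. Over all tested genes 36.3% rose, and 7370 of 28485 with total counts only. The median log2 ratio of the 8 genes was 0.77, against -0.06 over all tested genes. MIR100HG, whose span on chromosome 11 holds let-7a-2, had 18.8, 20.4 and 19.6 CPM in knockout libraries, against 3.995, 4.14 and 4.51 CPM in parental libraries. Its log2 ratio was 2.22 (SE 0.065, edgeR adjusted p = 2.02e-18). MIRLET7IHG, which spans let-7i, had 3.87, 3.86 and 4.44 CPM in knockout libraries, against 0.468, 0.691 and 0.657 CPM in parental libraries. It rose by 2.74 on the log2 scale (SE 0.13, edgeR adjusted p = 1.93e-13). Both genes thus lay at least 4 times higher in every knockout library than in any parental one.

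MIRLET7BHG, the host of let-7a-3 and let-7b, held 8.04, 10.1 and 11.1 CPM in knockout libraries, against 5.03, 4.23 and 4.95 CPM in parental libraries, with a log2 ratio of 1.04 (SE 0.12, edgeR adjusted p = 1.91e-05). MIR99AHG, which spans let-7c, held 1.52 ± 0.157 CPM in knockout and 0.616 ± 0.0440 CPM in parental libraries (SD, n = 3 each), a log2 ratio of 1.30 (SE 0.14, edgeR adjusted p = 1.46e-08). WDR82, whose span holds let-7g, rose by 0.49 (SE 0.050), and did not pass with total counts only (0.07, edgeR adjusted p = 0.112). MIRLET7A1HG fell by 0.45 on the log2 scale (SE 0.13, edgeR adjusted p = 0.00278), and its annotated span holds none of the let-7 genes. HUWE1, the host of let-7f-2 and miR-98, did not pass at 0.36 (SE 0.19, edgeR adjusted p = 0.164). It held 537 CPM in knockout replicate 1 against 349 and 368 CPM in replicates 2 and 3, and without replicate 1 it passed at 0.15 (edgeR adjusted p = 0.011). SPACA6, which spans let-7e, had a log2 ratio of -0.02 (SE 0.10, edgeR adjusted p = 0.867), and passed at -0.44 with total counts only (edgeR adjusted p = 0.00547). Host transcripts were counted here, not mature let-7, which polyadenylated libraries do not capture.

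Genes that process or destroy let-7 moved in both directions. Of 16 such genes 5 rose, 9 fell and 2 missed the threshold, for a median log2 ratio of -0.21. The share that passed was 87.5%, beside 73.8% over all tested genes (36.3% higher and 37.5% lower). The nuclear microprocessor subunits DROSHA and DGCR8 changed by 0.26 (SE 0.047) and 0.68 (SE 0.049), and DICER1, which cuts the let-7 hairpin, by 0.21 (SE 0.057). DROSHA and DICER1 were lower with total counts only, at -0.17 and -0.21. LIN28A marks precursor let-7 for decay by recruiting the uridyl transferase TUT4 or TUT7. TUT4 fell by 0.25 (SE 0.048) while TUT7 rose by 0.58 (SE 0.055). The nuclease DIS3L2, which degrades uridylated pre-let-7, fell to 27.9 ± 0.977 CPM in knockout libraries, against 58.7 ± 0.940 CPM in parental libraries (SD, n = 3), a log2 ratio of -1.07 (SE 0.049, edgeR adjusted p = 9.32e-15). TRIM25, a cofactor of this uridylation, rose by 1.82 (SE 0.050, edgeR adjusted p = 7.76e-19).

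TRIM71, an embryonic RNA-binding ubiquitin ligase and classic let-7 target, had 0.0900, 0.0695 and 0.0834 CPM in knockout libraries, against 2.26, 1.92 and 2.24 CPM in parental libraries. Its log2 ratio of -4.72 (SE 0.17, edgeR adjusted p = 1.06e-16) was the largest in this list. The exporter XPO5, the DICER1 partner TARBP2 and the let-7 processing factor KHSRP fell by 0.44 (SE 0.049), 0.60 (SE 0.058) and 0.49 (SE 0.048). AGO1, AGO3 and AGO4, proteins that carry mature microRNAs, fell by 0.16 (SE 0.053), 0.29 (SE 0.070) and 0.25 (SE 0.053), and AGO1 did not pass when knockout replicate 2, knockout replicate 3 or parental replicate 3 was left out (edgeR adjusted p = 0.0865, 0.098 and 0.0624). AGO2 and PRKRA did not pass, at 0.07 (SE 0.10) and 0.09 (SE 0.050). PRKRA passed in opposite directions under other scalings, at 0.12 with DESeq2 size factors and at -0.33 with total counts only (edgeR adjusted p = 0.042 and 1.15e-05).

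Other known let-7 targets did not share 1 direction. Of 27 such genes outside the 6, 10 rose, 14 fell and 3 missed the threshold, for a median log2 ratio of -0.33. In this list 88.9% passed, beside 73.8% over all tested genes, where 36.3% rose and 37.5% fell. The largest changes were rises. The matrix protein THBS1 changed by 7.89 (SE 0.071), the zinc finger factor PLAGL1 by 7.35 (SE 0.096), the kinase CDK6 by 6.36 (SE 0.089) and the cyclin CCND2 by 6.15 (SE 0.089). Their parental levels were 9.28, 0.115, 2.44 and 0.247 CPM. Among genes with at least 20000 counts on average in knockout libraries, the 20 with the lowest parental share were taken. They kept in parental libraries a median of 0.586% of their unscaled knockout count. The part of carried-over reads in such low levels was not tested.

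The class of at least 4 matches was set after values had been seen, from the count in HMGA2. Of its 12 genes, 9 fell, 1 rose and 2 missed the threshold, for a median log2 ratio of -1.04. Without IGF2BP1, LIN28B and HMGA2, 6 of the other 9 fell and 1 rose, with a median of -0.99. Among all 15971 tested genes with a 3′ UTR of at least 50 bases, 40.6% fell and 43.4% rose, with a median of 0.03. Genes with 2 or 3 matches did not stand out in the same way: of 159 tested, 64 fell and 73 rose, with a median of 0.07. With total counts only 94 fell and 45 rose. That scaling gave 14949 lower and 7370 higher of all 28485 tested genes, a wider set that includes genes without such a 3′ UTR. The median 3′ UTR was 5692 bases in the class of at least 4 matches, 4673 with 2 or 3 and 1057 over all, and no test of the difference between classes was made.

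The fallen genes of this class other than TRIM71 and the 3 already described were these. HIC2, a transcriptional repressor, had 4.93, 4.31 and 4.30 CPM in knockout libraries, against 18.0, 16.9 and 17.0 CPM in parental libraries (log2 ratio -1.94, SE 0.067). SMC1A, a cohesin subunit, had 207.7, 196.1 and 185 CPM against 405.9, 414 and 413.9 CPM (-1.07, SE 0.051). LIMD2 fell by 0.99 (SE 0.057), IGDCC3 by 1.01 (SE 0.19) at levels under 1 CPM, and ZBTB37 by 0.68 (SE 0.16). HEMK1 rose by 0.37 (SE 0.076), and changed by -0.05 with total counts only. NR6A1 did not pass, at 0.19 (SE 0.099).

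**Figure D4:**
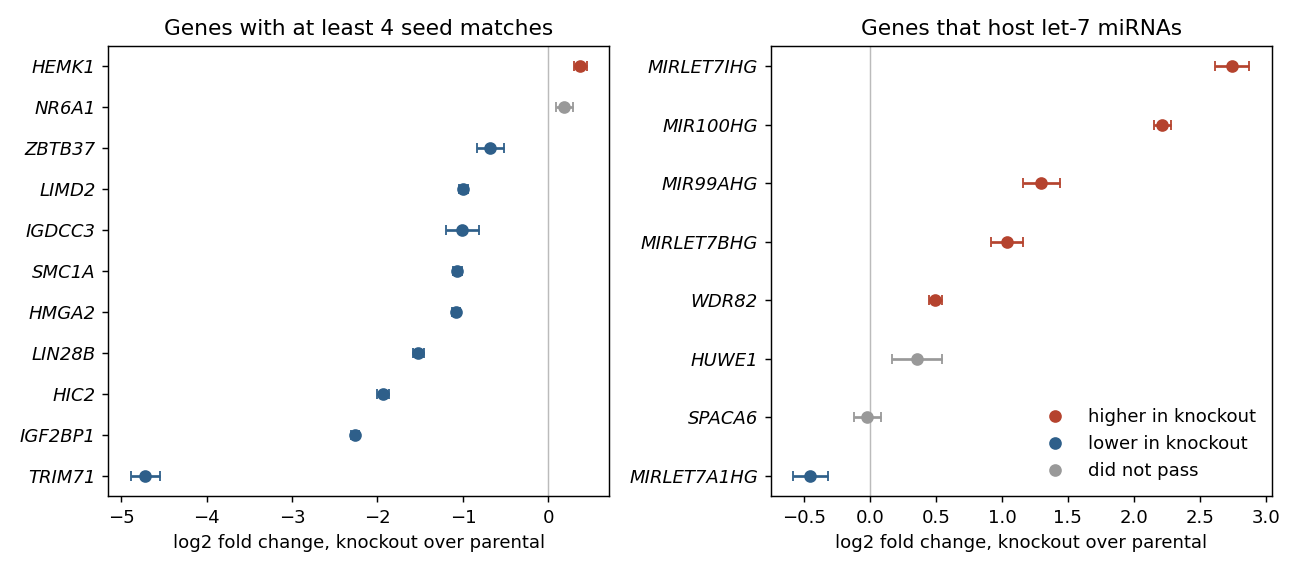
Left, log2 fold change, knockout over parental, with SE, of 11 of the 12 genes with at least 4 let-7 seed matches in the 3′ UTR. Right, the same for the 8 listed let-7 host genes. Of the left panel 9 genes are lower in knockout libraries, and of the right panel 5 are higher.

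Messages known to be bound by IGF2BP proteins moved in both directions. Of 16 tested client messages 9 rose, 3 fell and 4 missed the threshold, for a median log2 ratio of 0.61. With total counts only 8 rose and 7 fell. The 75% that passed lie near the 73.8% over all tested genes, where 36.3% rose and 37.5% fell. IGF2, the growth factor that gave the family its name, had 37.6, 35.1 and 35.2 CPM in knockout libraries, against 4.29, 4.10 and 4.10 CPM in parental libraries. It rose by 3.11 on the log2 scale (SE 0.058, edgeR adjusted p = 4.69e-22). CD44, the hyaluronan receptor, rose by 7.89 (SE 0.073), while the Hedgehog effector GLI1, which is also among the Ewing sarcoma markers, fell by 2.99 (SE 0.058). MYC, one of the best known clients, held 117.5 CPM on average in knockout and 118.0 CPM in parental libraries, with a log2 ratio of -0.01 (SE 0.047, edgeR adjusted p = 0.911).

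Protein partners of the IGF2BP family also moved in both directions. Of 12 partners 8 fell and 4 rose, with a median log2 ratio of -0.35. That all 12 passed is to be read against 73.8% of all tested genes, where 37.5% fell and 36.3% rose. HNRNPU and the helicase DHX9, which bind IGF2BP1-containing complexes, fell by 0.84 (SE 0.048) and 0.60 (SE 0.049), and the poly(A)-binding protein PABPC1 rose by 1.00 (SE 0.046). IGF2BP proteins are also described as readers of N6-methyladenosine (m6A), a mark on messenger RNA. Of 18 writers, erasers and other readers of this mark 8 rose and 10 fell, with a median of -0.20. All 18 thus passed, beside the same 73.8% over all tested genes. ZC3H13, a subunit that keeps the m6A writer in the nucleus, fell to 126 ± 4.61 CPM in knockout libraries, against 1737 ± 55.7 CPM in parental libraries (SD, n = 3), a log2 ratio of -3.79 (SE 0.054, edgeR adjusted p = 4.18e-24). The writer subunit WTAP rose by 1.16 (SE 0.049), and the nuclear proteins RBMX and HNRNPA2B1 fell by 1.10 (SE 0.050) and 0.91 (SE 0.048).

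Other high mobility group proteins, chromatin proteins like HMGA2, were mostly lower. Of 9 such genes 7 fell and 2 rose, with a median log2 ratio of -0.86. Over all tested genes 37.5% fell and 36.3% rose, with a median of -0.06. HMGN5 fell by 2.27 (SE 0.078), HMGB2 by 1.40 (SE 0.048), HMGB1 by 1.10 (SE 0.053) and HMGN2 by 1.10 (SE 0.047). HMGA1, described above, was 1 of the 2 that rose.

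**Figure D5:**
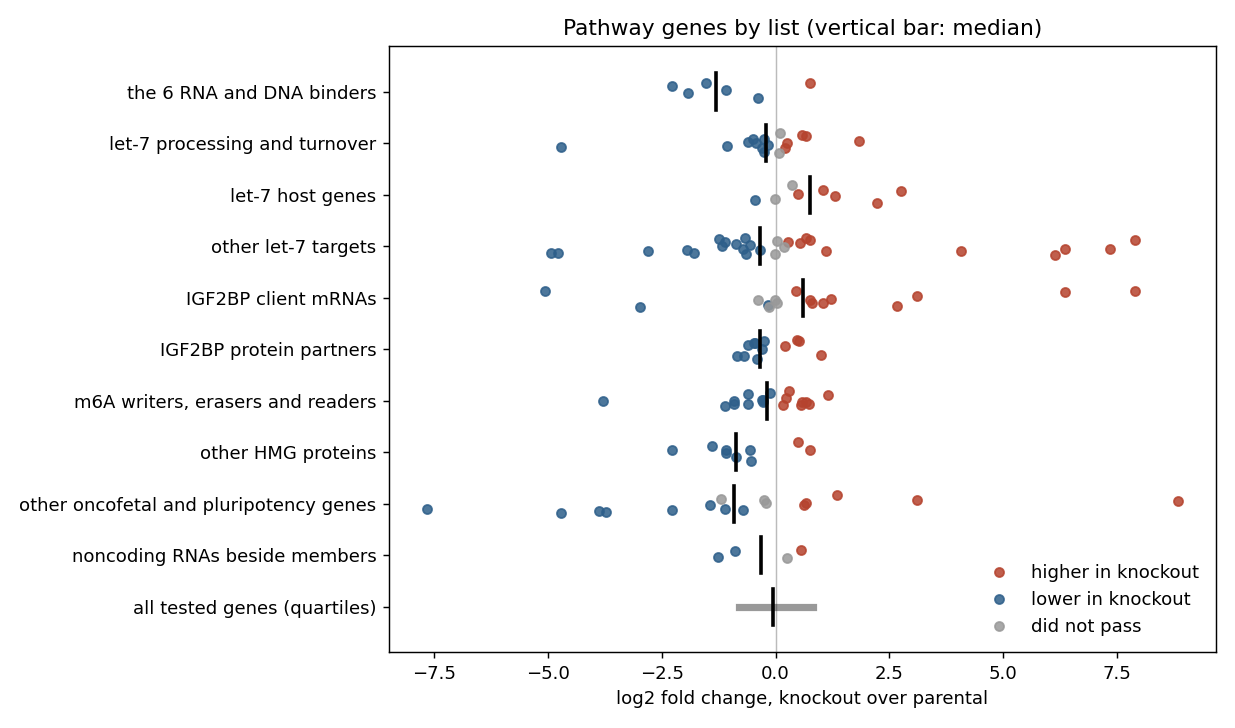
Log2 fold change, knockout over parental, of the tested genes of each list, with the median as a vertical bar and, in the bottom row, the quartiles of all tested genes. The 6 genes have a median of -1.30, and let-7 host genes and IGF2BP clients have medians above 0.

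Noncoding RNAs beside the 6 genes were scarce. HMGA2-AS1, which runs against HMGA2 and overlaps 2.49% of its exonic bases, held 0.324 ± 0.0915 CPM in knockout and 0.780 ± 0.0799 CPM in parental libraries (SD, n = 3), a log2 ratio of -1.27 (SE 0.19, edgeR adjusted p = 2.90e-06). RPSAP52, a pseudogene transcript from the same locus that has been reported to bind IGF2BP2, shares no annotated exonic base with HMGA2. It rose by 0.56 (SE 0.14, edgeR adjusted p = 8.78e-04), but did not pass with total counts only (0.14, edgeR adjusted p = 0.383). LIN28B-AS1, at 0.0509 CPM on average in knockout and 0.0940 CPM in parental libraries, fell by 0.88 (SE 0.37, edgeR adjusted p = 0.0345), a call lost with DESeq2 (adjusted p = 0.112) and without knockout replicate 3, parental replicate 2 or parental replicate 3 (edgeR adjusted p = 0.11, 0.0692 and 0.114). IGF2BP2-AS1 did not pass, at 0.25 (SE 0.45, edgeR adjusted p = 0.627).

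The chromosomal neighbours moved in both directions. Of the 3 nearest named protein-coding genes on each side, 33 of 36 were tested, and 15 rose and 15 fell. Among all tested genes 36.3% rose and 37.5% fell, and among the 15971 protein-coding ones with a 3′ UTR 43.4% and 40.6%. The counts differed between loci: 1 rose and 4 fell of 6 around IGF2BP1, 2 and 4 of 6 around IGF2BP2, 4 and 1 of 6 around IGF2BP3, 1 and 3 of 4 around LIN28A, 5 and 1 of 6 around LIN28B and 2 and 2 of 5 around HMGA2. BVES and POPDC3, 13.5 and 74.9 kb from LIN28B and coding for muscle membrane proteins, rose by 6.32 (SE 0.077) and 7.46 (SE 0.10), while LIN28B fell. HACE1, on its other side, changed by 0.34 (SE 0.054), and by -0.08 with total counts only. IGF2BP3 lies between GPNMB, which rose by 6.49 (SE 0.071), and the splicing factor TRA2A, which fell by 0.94 (SE 0.050). IGF2BP2 lies between SENP2, which fell by 0.20 (SE 0.050), and TRA2B, which fell by 0.86 (SE 0.047); the 2 of its 6 neighbours that rose lie beyond TRA2B.

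MSRB3 and LLPH, the nearest neighbours of HMGA2, changed by 6.12 (SE 0.072) and -0.32 (SE 0.055). GIP, a gut hormone gene next to IGF2BP1, fell by 4.30 (SE 0.25) at levels under 1 CPM, and B4GALNT2, on the other side, did not pass at -0.24 (SE 0.22, edgeR adjusted p = 0.343), but passed at -0.66 with total counts only (edgeR adjusted p = 0.0163). DHDDS, 2.6 kb from LIN28A, changed by 0.35 (SE 0.049), and by -0.08 with total counts only. ZNF683, on the other side of LIN28A, was not tested for lack of counts.

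For each gene of at least 1 CPM on average, the named genes of at least 5 CPM with the most similar profile over the 6 libraries were sought, by the root mean square distance of centred log2 values. For IGF2BP1 these were IPO5, FNBP1 and TNFRSF10D, at distances of 0.0271 to 0.0353. For IGF2BP2 they were SLC35E2B, NPC1 and ERP44, at 0.0120 to 0.0177, and for IGF2BP3 PDS5A, MSH6 and WDFY1, at 0.0137 to 0.0141. SLC2A13 and DEPDC1B lay near LIN28B, at 0.0205 and 0.0303, and KANSL1, MTERF4 and MMACHC to HMGA2, at 0.0166 to 0.0178. With 6 libraries in 2 groups such a distance mostly measures an equal fold change.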

How the data were processed

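RNA of 6 A673 libraries, 3 knockout and 3 parental, was enriched for poly(A) and sequenced on an Illumina instrument, per the labels' protocols. The authors deposited 1 table of estimated counts per gene. The build hg38 and the tool kallisto 0.48.0 are named in the labels, per the submitters' processing notes, while the step from transcripts to genes is not given in the sources used here. This tool splits reads that fit several transcripts, so genes with similar copies are uncertain.

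Rounded counts went into edgeR 4.0.16 under R 4.3.3: filterByExpr (minimum count 10, minimum total 15), TMM factors, a robust quasi-likelihood fit with genotype as its only term, two-sided, Benjamini-Hochberg adjustment over 28485 genes, threshold 0.05. SE is the log2 fold change divided by the root of F. edgeR put the variation between libraries of a genotype, beyond counting error, at 7.53% (coefficient of variation), which may be technical. The floor, 3 counts, is 0.00752 to 0.0117 CPM and covers counting error only. The steps were tested on simulated data. Shares were compared by exact permutation over libraries. Alternatives were DESeq2 1.42.0, limma 3.58.1 (voom), other scalings and filters, a replicate block and leaving out each library.

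Positions, lengths and 3′ UTRs are from GENCODE 29 (GRCh38), matched by gene ID without its version. The deposited counts use a later release, so the gene models counted there may differ. The 6 genes and the lists were chosen with earlier results of these data known, and lists are described by counts and medians with no set test. Genes were named by rule: all genes of the let-7 processing, host and noncoding lists, up to 4 with the largest fold change and at least 1 CPM per other list, the nearest neighbours and the closest profiles. HMGA1, MALSU1, MYC, POPDC3, EMCN, PECAM1 and the genes with at least 4 seed matches were named after their values were seen. Of these POPDC3, EMCN and PECAM1 also met the rule, while CD99, NKX2-2, EWSR1 and FLI1 were named outside it. Some results that the rule names are not reported here.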

Additional observations from a re-analysis of the deposited data

How the results depend on the processing

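The 6 genes kept their direction and their side of the threshold in all 83 values from 14 alternative fits. The log2 fold change of IGF2BP1 ranged from -2.69 to -2.22, of IGF2BP2 from 0.32 to 0.78, of IGF2BP3 from -0.82 to -0.35, of LIN28A from -2.34 to -1.64, of LIN28B from -1.95 to -1.47 and of HMGA2 from -1.50 to -1.04, and the largest adjusted p was 1.61e-04. LIN28A has no value with a filter of 1 CPM in 3 libraries. Leaving out 1 library at a time, IGF2BP1 took shares that differed by -37.8 to -37.3 percentage points, IGF2BP2 by 31.4 to 32.1 and IGF2BP3 by 5.51 to 6.18. Total-count scaling gave the most changes: 7370 genes were higher and 14949 lower, so that 33.0% of calls were higher in place of 49.1%, and with upper quartile factors 40.5%. With it, risen genes numbered 3 in the let-7 processing list, 2 among IGF2BP partners, 5 in the m6A list, 1 among HMG proteins, 0 among noncoding RNAs, 0 among genes with at least 4 seed matches and 45 with 2 or 3, and fallen ones 2 among let-7 hosts and 7 among IGF2BP clients. Upper quartile factors gave 3, 5, 0 and 7 for the let-7 processing, m6A, 4-match and client counts. A filter of 1 CPM in 3 libraries left 6650 higher and 6975 lower genes, 5 fallen clients, 2 risen and 4 fallen oncofetal genes and 0 fallen noncoding RNAs, of which fewer were tested. DESeq2 and the replicate block each gave 1 fallen noncoding RNA in place of 2. Without 1 library, fallen noncoding RNAs numbered 1 to 2, and risen genes with at least 4 seed matches 1 to 2, the 2 without knockout replicate 2, where NR6A1 passed.

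Among the other named genes, these turned direction, all of them with log2 fold changes under 0.4 in size in the main fit. With total counts only the values were DROSHA -0.17, DICER1 -0.21, PRKRA -0.33, AGO2 -0.36, HUWE1 -0.068, IGF2BP2-AS1 -0.18, DHDDS -0.078, HACE1 -0.084, HEMK1 -0.048 and NR6A1 -0.24. With upper quartile factors they were PRKRA -0.11, AGO2 -0.14 and NR6A1 -0.017. SPACA6 was 0.005 with DESeq2 size factors and with the DESeq2 test. Leaving out 1 library at a time, AGO2 ranged from -0.053 (without knockout replicate 1) to 0.146, SPACA6 from -0.099 to 0.116 and IGF2BP2-AS1 from -0.453 (without knockout replicate 1) to 0.596. The cause of these changes was not tested.

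The genotypes share replicate numbers, but same-numbered libraries did not deviate together: the correlations of their deviations from the genotype means were -0.337, -0.104 and -0.0653 over 11699 genes. With a replicate block 10041 genes were higher and 10377 lower, and IGF2BP1 had -2.27, IGF2BP2 0.75, IGF2BP3 -0.40, LIN28A -1.96, LIN28B -1.52 and HMGA2 -1.08. Levels per length with the longest transcripts were added after the data had been seen. Depth limits LIN28A and the noncoding RNAs, which rest on few counts.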

Other observations

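Other oncofetal and pluripotency genes did not move as a group with the 6 genes. Of 16 tested, 5 rose, 8 fell and 3 missed the threshold, for a median log2 ratio of -0.91. The share that passed was 81.2%, beside 73.8% over all tested genes. Most of the 16 held under 1 CPM on average in both genotypes, so these counts and the median rest largely on scarce messages. With a filter of 1 CPM in 3 libraries 2 rose and 4 fell. PEG10, a placental gene of retroviral origin, fell by 1.45 on the log2 scale (SE 0.054). SALL4, a stem cell transcription factor, fell by 1.11 (SE 0.13) at 0.778 CPM on average in knockout and 1.67 CPM in parental libraries. IGF2 and TRIM71, which also belong to this list, changed in opposite directions, as given above.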
